A study of Mus musculus with 5 samples.

Results

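Tryptases are trypsin-like serine proteases, and the genes of the mouse mast cell and basophil tryptases lie together on chromosome 17 beside Cacna1h, which encodes the pore of a T-type calcium channel. Of the 25549 gene models in the authors' deposited table, 5 belonged to this locus: Prss34, Tpsab1, Tpsb2, Tpsg1 and Cacna1h. They were chosen by gene name, with their fold changes between the genotypes already known, so their values are given as a description. RNA had been sequenced from mast cells grown out of C57BL/6 bone marrow, which were kept for 6 to 8 weeks with recombinant mouse interleukin-3 at 50 ng/mL and received no treatment. Both genotypes carried Cpa3-Cre: Cre recombinase is driven there by the promoter of Cpa3, a mast cell carboxypeptidase gene. The control group had the genotype Cpa3-Cre (n = 2 samples), and the other group, called the miR-9 line here, had the genotype Cpa3-Cre;miR-9∆fl/∆fl (n = 3 samples). The mice were described as matched for age and sex, no age was stated, and from the labels it cannot be read whether the recombined allele gains or loses miR-9.

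Mast cells store tryptases in secretory granules, where the active enzymes sit as tetramers on heparin, and release them when the cells degranulate. Tpsb2 encodes the tryptase known in mice as mMCP-6 and Tpsab1 the one known as mMCP-7. Tpsg1 encodes a tryptase anchored in the membrane, and Prss34 encodes mMCP-11, a tryptase found mainly in basophils. C57BL/6 mice carry a splice-site defect in Tpsab1 that abolishes its protein, and RefSeq classes the gene in that strain as a transcribed pseudogene. T-type channels open at low voltage and let calcium into excitable cells.

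Within the locus, 3 genes that adjoin each other were higher in the miR-9 line, while Tpsab1 was not called and Prss34 had no p-value. The fold changes were 5.96-fold for Tpsg1, 4.78-fold for Cacna1h and 3.03-fold for Tpsb2, all higher in the miR-9 line in the authors' deposited table. Tpsab1 stood 1.09-fold lower in the authors' deposited table and did not pass the test. Prss34 stood 1.44-fold higher in the authors' deposited table, which gives it no p-value. A gene was called when its p-value, adjusted by Benjamini-Hochberg over all 24071 gene models with one, was under 0.05. Of the 4 members with a p-value 3 were called, all higher; among all gene models with a p-value 0.411 percent were called and 0.245 percent were called higher. Since this contrast was in view when the members were chosen, nothing is read from that difference. The standard error of each fold change and the expression level in each sample were not analysed here, so it is not known whether the samples of the groups overlapped. The labels leave unsaid whether the samples of one genotype had separate mice or cultures as their source, so the p-values measure only how these samples scatter, and that scatter may be technical. Sex-linked genes were read beside the stated matching: Xist, the RNA that coats an inactive X chromosome in female cells, had a value of 1.58 (unadjusted p = 0.000994, adjusted p = 0.101) by the authors' deposited table. The Y-linked gene Usp9y was not called, at -1.002 (unadjusted p = 0.0399, adjusted p = 0.586) by the authors' deposited table, where Uty, Kdm5d, Ddx3y and Eif2s3y stood at -0.65, -0.55, -0.36 and -0.20 and were not called. A neighbouring pair of gene models on the Y chromosome, Gm20815 and Gm21292, was called at -2.10 (adjusted p = 0.0330) and -2.29 (adjusted p = 0.0141) by the authors' deposited table. The pair was read from the runs of adjacent called genes, so other called gene models of that chromosome are not counted here. The part of sex in the values of the locus was not tested.

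**Figure D1:**
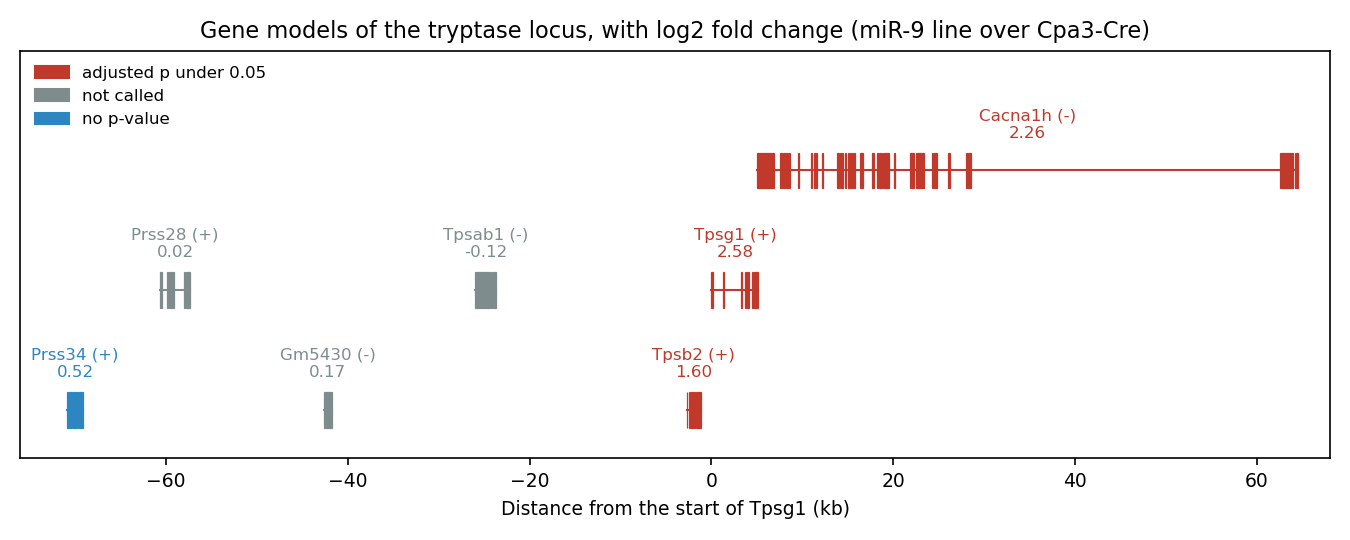
Gene models of the tryptase locus in the authors' deposited table, drawn to scale by distance from the start of Tpsg1 in kilobases (x axis), with boxes for exons, the strand in brackets and the log2 fold change (miR-9 line over Cpa3-Cre) under each name; the height of a gene has no meaning. The 3 called genes, Tpsb2 (1.60), Tpsg1 (2.58) and Cacna1h (2.26), adjoin each other, while Tpsab1 (-0.12) and Prss28 (0.02) were not called and Prss34 (0.52) had no p-value.

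Tpsg1, the membrane-anchored tryptase, had the highest fold change of the 5. Its log2 fold change was 2.58 in the authors' deposited table, with an unadjusted p of 2.52e-07 and an adjusted p of 0.000533 (Benjamini-Hochberg, computed here). Among the 24071 gene models, this fold change ranked 2 from the top and the p-value ranked 10 from the smallest. The gene model has 7 exons and 1389 exonic bases and runs on the plus strand of chromosome 17 from 25369273 to 25374442 (GRCm38).

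Tpsb2 lies just upstream of Tpsg1 on the same strand and encodes the main secreted mast cell tryptase of the strain. Its log2 fold change was 1.60 in the authors' deposited table, with an unadjusted p of 2.53e-05 and an adjusted p of 0.0149. The fold change ranked 23 from the top and the p-value 41 from the smallest. The gene model has 5 exons and 1081 exonic bases, from 25366550 to 25368094, which leaves 1178 bases to the start of Tpsg1. GENCODE M21 lists 4 transcripts of Tpsb2, and 1 of them has a last exon that ends at 25369098, only 174 bases before Tpsg1. The gene model in the authors' deposited table does not hold that exon.

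Tpsab1 is the closest relative of Tpsb2 among these genes and was not called. Its log2 fold change was -0.12 per the authors' deposited table (unadjusted p = 0.807, adjusted p = 0.980). It lies 20987 bases from Tpsb2 on the minus strand, from 25343245 to 25345562, with 3 exons and 2094 exonic bases. Of the 2 transcripts in GENCODE M21, one has 5 exons and a reading frame of 930 bases, and the other has 2 exons, of which the longer spans 1672 bases, and a reading frame of 240 bases. The exons of the deposited gene model cover both, so the value in the authors' deposited table does not tell the 2 transcripts apart.

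Prss34 stands at the far end of the locus, from 25298394 to 25300161 on the plus strand, with 5 exons and 1216 exonic bases. Its log2 fold change was 0.52 in the authors' deposited table, and the sources used here do not say why its p-value is empty. Of the 1478 gene models without a p-value, 40 (2.71 percent) stood as high as Prss34 or higher; of those with a p-value, 5.56 percent did. Prss34 enters no count of called genes. Prss28, another secreted serine protease gene, lies between Prss34 and Tpsab1 and stood at 0.02 per the authors' deposited table (adjusted p = 0.996).

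Cacna1h ends where Tpsg1 ends, on the opposite strand. Its log2 fold change was 2.26 in the authors' deposited table, with an unadjusted p of 1.50e-05 and an adjusted p of 0.0100. The fold change ranked 3 from the top, next to Tpsg1, and the p-value ranked 36 from the smallest. The model has 35 exons and 9763 exonic bases over a span of 59499 bases, from 25374285 to 25433783 on the minus strand. Under the more conservative Benjamini-Yekutieli adjustment, which allows for any dependence between genes, Tpsg1 was still called (adjusted p = 0.00569), while Cacna1h (0.107) and Tpsb2 (0.158) were not.

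**Figure D2:**
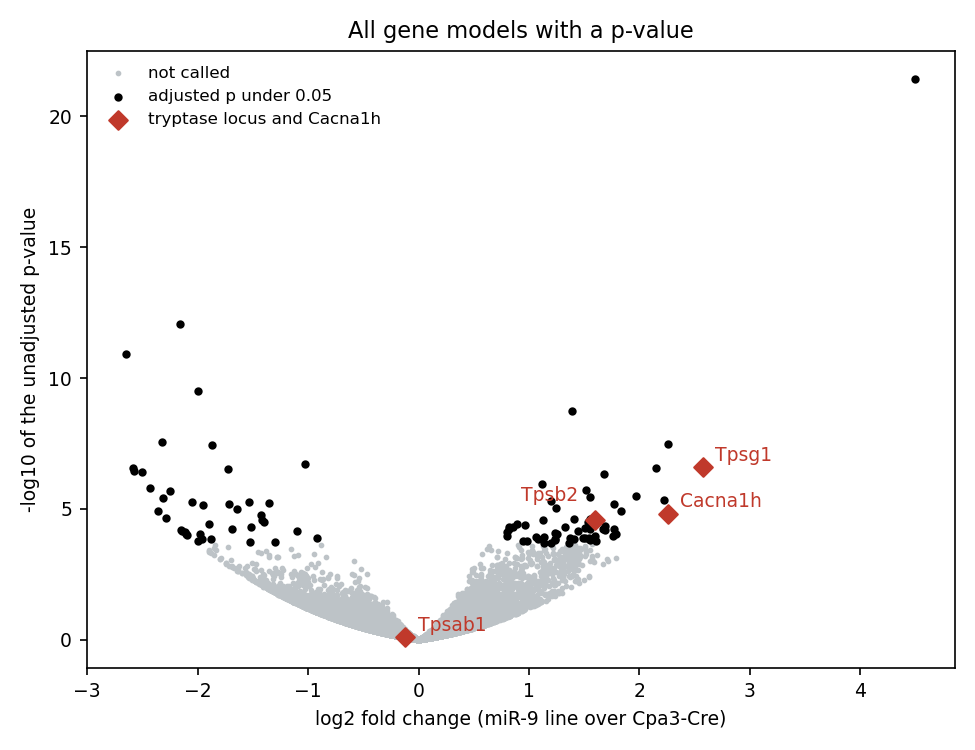
Log2 fold change between the genotypes (x axis, positive where the miR-9 line is higher) against -log10 of the unadjusted p-value (y axis) for all 24071 gene models that have a p-value, from the authors' deposited table; black points are called genes and red diamonds the 4 members with a p-value. Tpsg1 and Cacna1h lie at 2.58 and 2.26, with Gm25641 farther right at 4.50, Tpsb2 lies at 1.60, and Tpsab1 lies near the origin at -0.12.

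The models of Tpsg1 and Cacna1h overlap tail to tail by 158 bases, from 25374285 to 25374442. The overlap is exonic and noncoding in both genes. It makes up 11.4 percent of the exonic length of Tpsg1 and 1.62 percent of that of Cacna1h. The libraries marked strand. The sources used here do not say whether the counting used it, and its part in the 2 values was not tested.

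To see how far the tryptases could share reads, the annotated GENCODE M21 transcripts of each member were cut into all words of 50 bases, the read length of the libraries, and searched on both strands in the transcripts of every other gene. For Tpsb2 (1636 words), Tpsab1 (2187 words) and Prss34 (1171 words), 0 words were found in a transcript of another gene. For Tpsg1, 109 of 1434 words (7.60 percent) were found, all in Cacna1h and all on the opposite strand, from the overlap described above. For Cacna1h, 110 of 9845 words (1.12 percent) were found, 109 in Tpsg1 and 1 in Cacna1i, another T-type channel gene. The coding sequences of Tpsb2 and Tpsab1 were 77.1 percent identical over 824 aligned bases, and the other tryptase pairs among the members lay between 65.0 and 69.2 percent. The longest run that the Tpsb2 and Tpsab1 transcripts share without a mismatch has 39 bases and is shown because it is shorter than a read:
Tpsb2 and Tpsab1, coding sequence: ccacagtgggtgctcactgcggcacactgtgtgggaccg
The search covered exact words in annotated transcripts only, without introns or sequencing errors.

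The RefSeq promoter table (GRCm38.p6, 250 bases before to 50 after a start) had entries for Tpsg1, with 2 starts, and for Prss34, and none for Tpsab1, Tpsb2 and Cacna1h. The promoters are shown because Tpsg1 had the highest fold change and Prss34 is the member at the other end of the locus. Capitals mark matches on either strand to AGATAA (one form of the GATA site), to CACGTG or CATGTG (E-boxes of the kind MITF binds) and to TGTGGT (the core of RUNX sites). GATA factors, MITF and RUNX factors regulate mast cell genes. The first Tpsg1 window is cut so that it begins after the longest Tpsb2 transcript:
Tpsg1, first start, chr17:25369099-25369322, plus strand: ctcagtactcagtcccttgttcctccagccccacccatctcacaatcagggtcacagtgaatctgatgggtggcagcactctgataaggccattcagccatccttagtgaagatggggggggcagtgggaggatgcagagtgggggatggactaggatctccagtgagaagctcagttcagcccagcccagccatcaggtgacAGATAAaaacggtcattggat
Tpsg1, second start, chr17:25370303-25370602, plus strand: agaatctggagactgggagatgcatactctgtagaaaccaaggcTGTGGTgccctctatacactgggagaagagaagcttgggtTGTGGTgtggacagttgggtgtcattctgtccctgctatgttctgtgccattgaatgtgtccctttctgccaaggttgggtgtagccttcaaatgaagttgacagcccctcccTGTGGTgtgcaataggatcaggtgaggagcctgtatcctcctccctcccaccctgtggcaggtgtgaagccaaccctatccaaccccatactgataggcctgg
Prss34, chr17:25298144-25298443, plus strand: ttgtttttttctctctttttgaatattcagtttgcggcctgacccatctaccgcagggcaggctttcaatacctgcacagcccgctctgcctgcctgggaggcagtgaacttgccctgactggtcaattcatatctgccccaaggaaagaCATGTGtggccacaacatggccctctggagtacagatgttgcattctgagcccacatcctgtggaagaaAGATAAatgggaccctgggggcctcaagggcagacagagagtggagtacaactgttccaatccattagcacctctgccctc
In the window of the first Tpsg1 start, AGATAA occurred once, 30 bases into the transcript. The window of the second Tpsg1 start held 3 matches to TGTGGT, 206, 166 and 53 bases before the start. The Prss34 window held AGATAA 31 bases and CATGTG 100 bases before its start. Of the 32851 promoter windows in the table, 11.2 percent held AGATAA, 7.15 percent CACGTG, 14.2 percent CATGTG and 16.8 percent TGTGGT on either strand. A match describes the letters and does not show that a factor binds there.

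The mature miR-9 sequences are shown with the seed, bases 2 to 8, in capitals, because the genotypes differ at a miR-9 allele:
miR-9-5p: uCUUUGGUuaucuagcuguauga
miR-9-3p: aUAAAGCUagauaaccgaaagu
A microRNA usually lowers transcripts that pair with its seed in the 3' UTR. The longest annotated 3' UTR of each member was searched for the 7-base match ACCAAAG to miR-9-5p and AGCTTTA to miR-9-3p. Cacna1h held 1 match to miR-9-5p in a UTR of 1818 bases, and Tpsab1 held 1 match to miR-9-3p in a UTR of 1601 bases, which belongs to the transcript with the short reading frame. With the match in capitals, the sites are:
Cacna1h, miR-9-5p match: ggacagtgACCAAAGtgtgaccc
Tpsab1, miR-9-3p match: cagagtagAGCTTTAgggatagg
Tpsb2, Tpsg1 and Prss34 held no match to either. Of 21104 genes searched the same way, 13.4 percent held the miR-9-5p match and 11.7 percent the miR-9-3p match. Of the called members, Cacna1h held the miR-9-5p match, and Tpsg1 and Tpsb2 held none. Tpsab1, with the miR-9-3p match, was not called. The labels do not tell whether miR-9 is gained or lost, and the part of these matches in the values was not tested.

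Genes that flank the locus were not called. On the side of Prss34, Baiap3 lay 42029 bases away, at a log2 fold change of -0.31 per the authors' deposited table (adjusted p = 0.928). On the side of Cacna1h, Tekt4, a tektin gene, lay 37806 bases away at -0.16 per the authors' deposited table (adjusted p = 0.953). The transcription factor gene Sox8 followed at -0.28 per the authors' deposited table (adjusted p = 0.894). Inside the locus and within 250 kb of it there were 16 gene models with a p-value besides the members, 0 of them called and 0 with an unadjusted p under 0.05, with a median of -0.06 and a range from -0.76 to 0.28. The median of all 24071 gene models was -0.09. With the window at 500 kb, 1 of 51 such gene models was called: Hn1l, about 338 kb away, rose by 0.86 (log2) per the authors' deposited table (adjusted p = 0.0225).

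**Figure D3:**
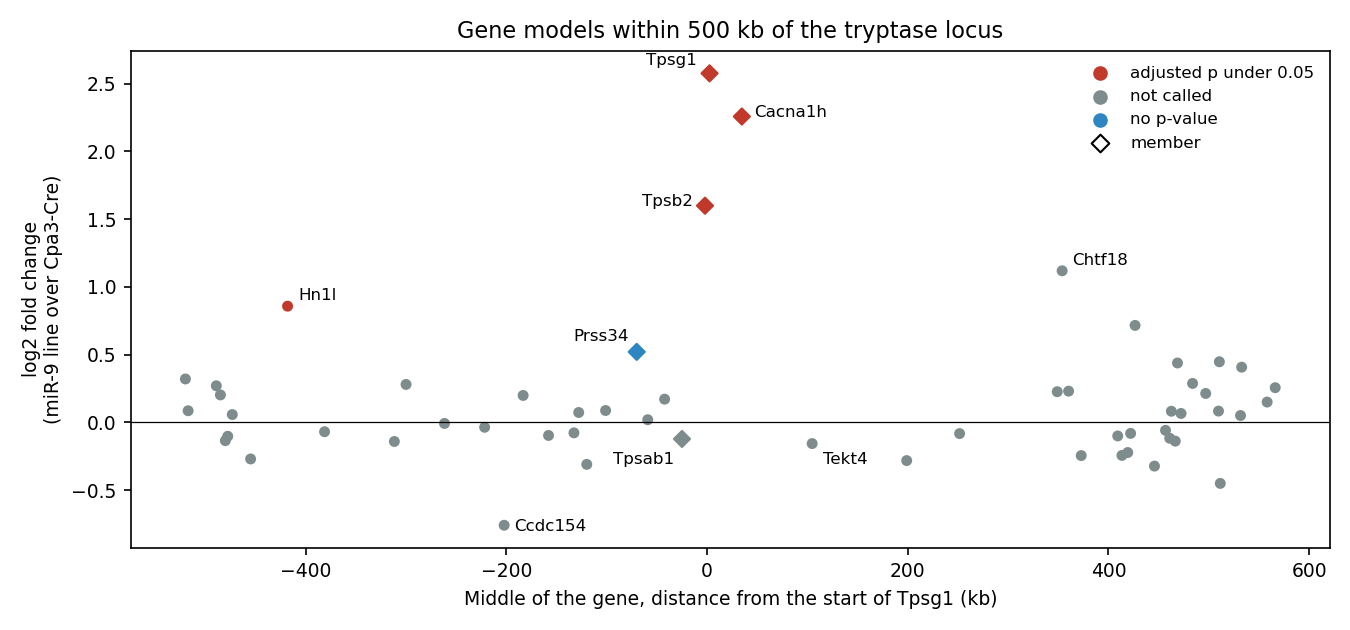
Log2 fold change (y axis, miR-9 line over Cpa3-Cre, from the authors' deposited table) of each gene model within 500 kb of the tryptase locus against the distance of its middle from the start of Tpsg1 in kilobases (x axis). Diamonds are the members, red marks called genes and blue the member without a p-value; Tpsb2, Tpsg1 and Cacna1h stand between 1.60 and 2.58, and the called gene Hn1l stands at 0.86.

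When all gene models with a p-value were ordered by start along each chromosome, called genes stood next to another gene called in the same direction in 7 places. In 6 of these places there were 2 such genes, and the run of 3 was Tpsb2, Tpsg1 and Cacna1h, which together span 67234 bases. These are counts, without a test of clustering. In the run of 3, Tpsg1 and Cacna1h overlap by 158 bases, and all 3 genes were chosen with their values known.

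Among the tryptases and related serine proteases, the members Tpsg1 and Tpsb2 were the called genes. Of 15 genes listed, 10 had a p-value: 2 rose, 0 fell and 8 did not pass, with a median of -0.16 beside -0.09 for all gene models. The 7 listed genes with a p-value that are not members had a median of -0.30. Of them 6 were negative, where 59.8 percent of all gene models were. None of the 7 was called and 1 had an unadjusted p under 0.05. That gene was Prss30, a membrane-anchored protease, at -0.96 per the authors' deposited table (unadjusted p = 0.0205, adjusted p = 0.462).

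Granule proteases encoded elsewhere in the genome were not called. Of 12 with a p-value, 9 had positive values, where 40.2 percent of all gene models did. Of the 12, 0 were called and 2 had an unadjusted p under 0.05, with a median of 0.33. The highest was Cma1, the chymase gene that the study's title names, at 0.97 per the authors' deposited table (adjusted p = 0.442). The lowest was Ctsc, which encodes cathepsin C, an activator of granule serine proteases, at -0.33 per the authors' deposited table (adjusted p = 0.907). The difference between these proteases and the called tryptases was not tested.

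Cacna1h was the called gene in a list of voltage-gated calcium channel subunits. The list also held Nalcn, a sodium leak channel gene, and Catsper1, a sperm cation channel gene. Of the list's 25 other genes with a p-value, 23 had negative values, where 59.8 percent of all gene models did. Their median was -0.61, none was called and 2 had an unadjusted p under 0.05. The 25 include Nalcn at -0.63 (adjusted p = 0.844) and Catsper1 at -0.94 (adjusted p = 0.659) per the authors' deposited table. The other T-type pore genes were Cacna1g, at -0.65 per the authors' deposited table (adjusted p = 0.818), and Cacna1i, at -1.05 per the authors' deposited table (adjusted p = 0.640). The lowest value was that of Cacna1d, an L-type pore gene, at -1.54 per the authors' deposited table (adjusted p = 0.188). The highest of the others was Cacng8, at 0.53 per the authors' deposited table (adjusted p = 0.775). No test compared Cacna1h with these genes.

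Genes of calcium entry and store release by other routes were not called. Of 35 with a p-value, 19 had positive values, 5 had an unadjusted p under 0.05, and the list's median was 0.06. P2rx7, an ATP-gated channel, was highest at 0.93 per the authors' deposited table (adjusted p = 0.430), and Ryr1, a ryanodine receptor, was lowest at -1.33 per the authors' deposited table (adjusted p = 0.346).

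The transcription factors of mast cell granule genes were not called either. Of 28 with a p-value, 14 had positive values, 1 had an unadjusted p under 0.05, and the list's median was -0.01. The extremes were Ets1 at 0.53 (adjusted p = 0.849) and Etv1 at -1.17 (adjusted p = 0.503), both ETS family factors, in the authors' deposited table. Mitf stood at 0.05 (adjusted p = 0.980) and Gata2 at -0.06 (adjusted p = 0.982) by the authors' deposited table; these 2 were picked after their values were seen, as factors whose sites were searched above.

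In the list of heparin synthesis and storage, where tryptases are held, 1 of 22 genes with a p-value was called. Hs3st5, whose enzyme adds sulfate to heparan sulfate, fell by 2.58 (log2) per the authors' deposited table (adjusted p = 0.000621). The other 21 did not pass, 4 of the 22 had an unadjusted p under 0.05, and the list's median was -0.03. Its highest value was that of Papss2, which makes the sulfate donor, at 0.73 per the authors' deposited table (adjusted p = 0.521).

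Of 15 genes with a p-value in a list of protease-activated receptors and protease inhibitors, 0 were called and 3 had an unadjusted p under 0.05, with a median of -0.11. The highest was Cst7, a cystatin and so an inhibitor of cysteine rather than serine proteases, at 0.45 per the authors' deposited table (adjusted p = 0.644). F2rl1, the receptor that tryptase can cleave, stood at -0.09 per the authors' deposited table (adjusted p = 0.986) and was picked after its value was seen.

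**Figure D4:**
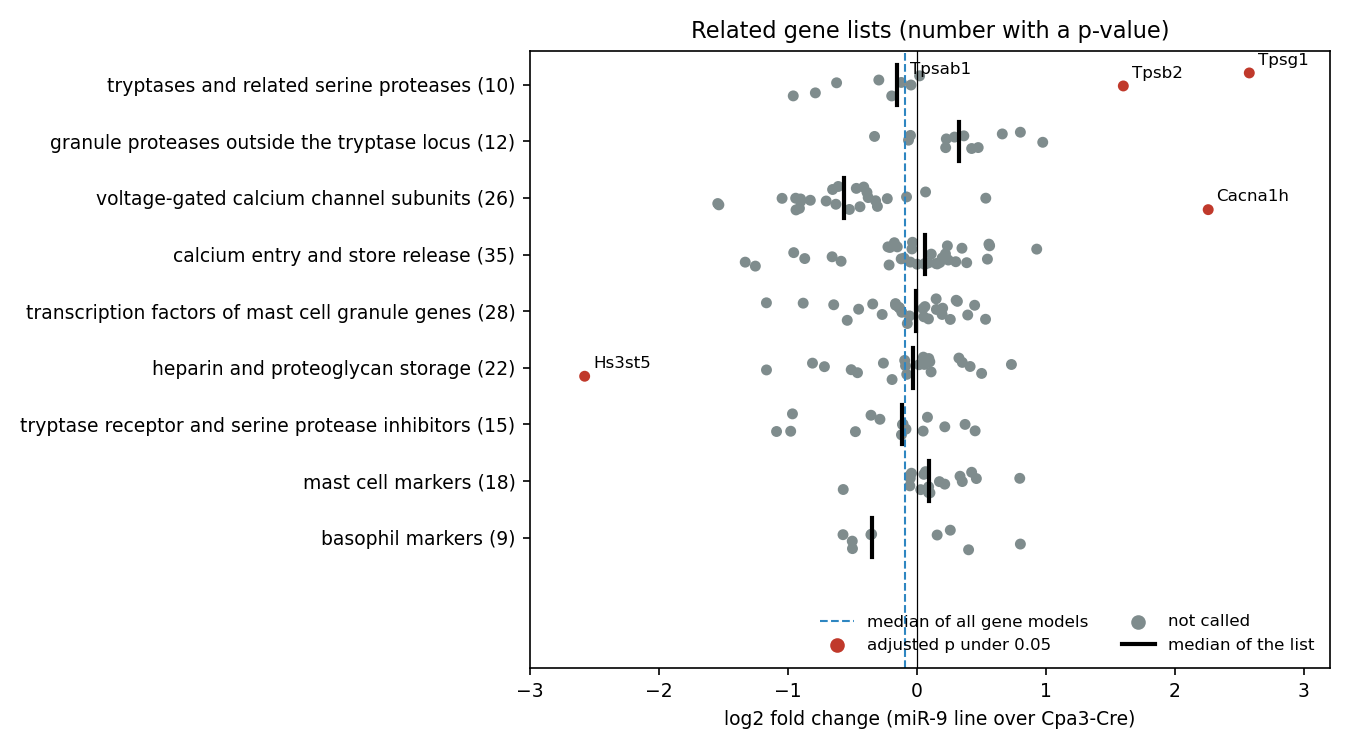
Log2 fold change (x axis, miR-9 line over Cpa3-Cre, from the authors' deposited table) of genes with a p-value in 9 gene lists (y axis, number of genes in brackets); points are genes, spread vertically for legibility, red ones are called, black bars are list medians and the dashed line is the median of all gene models. Tpsg1, Tpsb2 and Cacna1h stand to the right of the other genes of their lists, and Hs3st5 is the called gene on the left.

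Markers of mast cells and of the other cells such a culture could hold were read beside these values. Levels were not analysed here, so the labelled cell type was not checked by its markers. The members Tpsb2, planned as a mast cell marker and called above, and Prss34, planned as a basophil marker, were not counted in the marker lists. None of the 18 mast cell markers that were counted was called, 1 had an unadjusted p under 0.05 and their median was 0.09. The highest was Maob, a monoamine oxidase gene, at 0.80 (adjusted p = 0.289) and the lowest Mrgprb1, a mast cell receptor gene, at -0.57 (adjusted p = 0.851) by the authors' deposited table. Of 9 basophil markers with a p-value, 0 were called and 2 had an unadjusted p under 0.05, with a median of -0.35. Among these, Gzmb, a granzyme, was highest at 0.80 (adjusted p = 0.627) and Itgb7, an integrin chain, lowest at -0.57 (adjusted p = 0.520) by the authors' deposited table. Gzmb was also counted among the granule proteases above, so the lists share genes. The median of the basophil list does not measure basophil content. Mcpt8, the basophil protease that marks the lineage, had no p-value and stood at 0.13 in the authors' deposited table. Of 51 markers of neutrophils, monocytes, eosinophils, lymphocytes and red cell or platelet precursors, 25 had a p-value and 0 were called. Among the 25, 3 had an unadjusted p under 0.05: Apoe at -1.31, Cd3d at -1.03 and Hbb-bs at 1.09, by the authors' deposited table. Of the markers with a fold change, 1 of 10 for neutrophils, 3 of 11 for monocytes and macrophages and 2 of 7 for eosinophils had a p-value. Of all gene models, 5.78 percent had none. The count of called markers therefore says little about those cell types. The 8 lymphocyte markers with a p-value were all negative, with a median of -0.53, and of 11 erythroid and megakaryocyte markers 8 were positive, with a median of 0.42. Of all gene models with a p-value, 59.8 percent were negative and 40.2 percent positive. In bulk RNA, a change in the number of cells of a type and a change in RNA per cell cannot be told apart, and the part that other cells had in the tryptase values was not tested.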

How the data were processed

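Per the labels' protocols, total RNA was treated with heparinase, freed of ribosomal RNA and made into stranded libraries, which were read in pairs of 50 bases at a stated depth near 70 M reads per sample. The submitters' processing notes name STAR, HTSeq, DESeq2, Cuffdiff and DESeq and the builds GRCm38 and mm10; versions and roles are not named. Per the file headers, the authors deposited log2 fold changes (miR-9 line over Cpa3-Cre), the same value as a signed fold change (treated as a score), and an unadjusted p-value per gene model; the sources used here do not say whether fold changes were shrunken. The deposited gene length equals the summed exons in all 25549 rows. Per the series' design text, the authors used DESeq2 and a p-value threshold of 0.0001. A further 5 columns, with values for single libraries, have names that correspond to none of the sample labels; none was used, so no test of expression was made here.

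Benjamini-Hochberg and Benjamini-Yekutieli adjustments over the 24071 deposited p-values were coded in numpy 2.4.6 and checked on simulated data against statsmodels 0.14.6; 1478 rows have no p-value. Adjustment over protein-coding genes used 15683 rows matched to GENCODE M21 by symbol and position. Coding sequences were aligned globally with Biopython 1.88. Python 3.11.15 and pandas 2.3.3 were used. The members and the 14 gene lists were chosen with earlier results of these data known, and no list was tested as a set. The share of all gene models with an unadjusted p under 0.05 was not worked out, so counts at that threshold have no background beside them. Named genes were the members, called genes within 250 kb and the 2 nearest on each side, and in each list the called genes and the highest and lowest. Prss28, Hn1l, Cacna1g, Cacna1i, Nalcn, Catsper1, Mitf, Gata2, F2rl1, Mcpt8, Tiam2, Satb1, Gm25641 and the sex-linked genes were picked after their values were seen. So were Apoe, Cd3d and Hbb-bs where not the extreme of a list. Some genes that the rule names are not reported here. The planned naming of genes correlated with Tpsb2 and Tpsg1 needs values per library and was left out. Protein sequences were not used here.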

Additional observations from a re-analysis of the deposited data

How the results depend on the processing

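With the Benjamini-Yekutieli adjustment, the number of members called fell from 3 to 1 (Tpsg1). It was 3 with an unadjusted p under 0.0001, the threshold of the study's design text, with an adjusted p under 0.10, and with adjustment over protein-coding genes only. Subtracting the median of all gene models moved each member's log2 fold change up by 0.09 and turned no direction. Members included, 3 genes were called within 100 kb, within 250 kb or at an adjusted p under 0.10, and 4 within 500 kb. The 3 were the members Tpsb2, Tpsg1 and Cacna1h. Of other gene models, 0 were called within 100 kb, 0 within 250 kb and 1 within 500 kb. For the lists of serine proteases, of calcium channels and calcium entry, and of regulators, storage and receptor of tryptase, the numbers called at an adjusted p under 0.10 equalled those at 0.05. Other normalizations, filters on low values, pseudocounts and leaving out each replicate were not run, since they need a value for each library. No paired analysis was possible because the per-library columns carry no sample's name or replicate number. The depth behind each gene was not analysed here, so a fold change of a scarce gene cannot be told from that of an abundant one.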

Other observations

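On the whole of chromosome 17, 6 of 1142 gene models with a p-value were called, 5 of them higher. Among all gene models with a p-value, 0.411 percent were called and 0.245 percent were called higher. The 6 were Tpsb2, Tpsg1, Cacna1h, Hn1l, Tiam2 and Satb1, and the members among them were chosen with this contrast known. Tiam2, which encodes an activator of the GTPase Rac, stood at 1.26 (log2 fold change) per the authors' deposited table (adjusted p = 0.0316). Satb1, a chromatin organizer, stood at -1.36 per the authors' deposited table (adjusted p = 0.00528). Both lie outside the 500 kb window around the tryptase locus. The median over the chromosome was -0.10.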
